A study of Homo sapiens with 16 samples.

Results

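The genes that write, copy and erase DNA methylation were followed through open chromatin in human brain organoids. These were DNMT1 and UHRF1, DNMT3A and DNMT3B, and TET1, TET2 and TET3, which are 7 of the 19974 protein-coding genes placed on the genome. They were chosen by name, and all 7 passed the filter on low coverage that left 18755 genes for testing. For each gene and library, the peaks and the bases they cover were counted in the gene body plus 20 kb on either side. ATAC-seq marks open chromatin by the insertions of the Tn5 transposase. The organoids were grown from H9 cells, a long-established human embryonic stem cell line, and the labels give the genotype as WT in every library. Cells labelled SOX2::EGFP+, which carry the green reporter of a neural progenitor gene, are called progenitors here. Cells labelled hSyn1::dtomato+, in which a synapsin promoter marks neurons in red, are called neurons. Sorting was done on days 40, 60, 90 and 120, and each of the 8 groups has 2 libraries, so that 16 libraries from 1 cell line enter. Nothing in the labels tells if the pair of a group are separate cultures, and p-values then measure only the spread between libraries, which may be technical.

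DNA methylation is placed on cytosines that are followed by guanine. DNMT1 copies the pattern onto the new strand after replication and is brought there by UHRF1, which reads half-methylated DNA. DNMT3A and DNMT3B set new methylation, in neurons largely through DNMT3A, while the TET enzymes oxidise methylcytosine as the first step of its removal. In the brain, oxidised methylcytosine is abundant in neurons. A peak shows that chromatin was open, not how much of the gene's RNA or protein was made.

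Promoters of the members are shown first, since most members had open chromatin at a start site in every library. The promoter table of RefSeq (GRCh38.p14, the same coordinates as the files' build hg38) held 18 start sites of the 7 genes. The 4 stretches below are the 250 bases before a start and were chosen for their contrast. They are the DNMT1 start, open in 16 of 16 libraries, and a UHRF1 start with peaks in 11. The others are the DNMT3A start inside the gene, open in 16, and a DNMT3B start 17.5 kb into its gene, with peaks in 11. Capitals mark matches, on either strand, to the GC box GGGCGG, to the CCAAT box, to the E-box CACGTG, and to the E2F-type sites TTTCCCGC and TTTGGCGC.
DNMT1, chr19:10194954-10195203, minus strand: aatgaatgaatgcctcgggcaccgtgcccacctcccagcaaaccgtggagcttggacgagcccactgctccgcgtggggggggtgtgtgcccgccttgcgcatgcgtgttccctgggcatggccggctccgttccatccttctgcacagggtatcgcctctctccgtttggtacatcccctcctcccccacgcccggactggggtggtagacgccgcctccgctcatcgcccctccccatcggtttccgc
UHRF1, chr19:4909251-4909500, plus strand: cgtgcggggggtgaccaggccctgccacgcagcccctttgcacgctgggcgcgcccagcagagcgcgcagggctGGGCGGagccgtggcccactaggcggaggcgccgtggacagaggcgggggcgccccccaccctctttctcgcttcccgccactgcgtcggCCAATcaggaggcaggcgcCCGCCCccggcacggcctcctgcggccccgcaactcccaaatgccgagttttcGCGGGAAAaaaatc
DNMT3A internal start, chr2:25252316-25252565, minus strand: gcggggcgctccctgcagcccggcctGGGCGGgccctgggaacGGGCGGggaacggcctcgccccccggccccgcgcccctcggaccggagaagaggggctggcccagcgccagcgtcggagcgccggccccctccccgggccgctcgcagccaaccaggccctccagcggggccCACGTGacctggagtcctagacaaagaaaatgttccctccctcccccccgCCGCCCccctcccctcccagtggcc
DNMT3B, chr20:32779602-32779851, plus strand: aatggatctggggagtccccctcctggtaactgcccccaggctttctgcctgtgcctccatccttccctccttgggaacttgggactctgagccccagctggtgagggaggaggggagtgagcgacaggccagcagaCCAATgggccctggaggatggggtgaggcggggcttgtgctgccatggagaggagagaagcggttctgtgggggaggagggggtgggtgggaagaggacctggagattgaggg

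The DNMT1 stretch holds 21 CpG and none of the motifs. The DNMT3B stretch, before a start 17.5 kb into the gene, holds 3 CpG and a CCAAT match. The promoter table had no entry at the annotated DNMT3B start, so the sequence there was not read. The UHRF1 stretch holds 28 CpG, 2 GC boxes, a CCAAT match and the only TTTCCCGC match among the 18 member promoters. Over the 300-base promoters of the table, 250 bases before and 50 after the start, that motif was present in 1.63% of 35097. GC boxes were present in 11 of the 18 member promoters (in UHRF1, DNMT3A, TET2 and TET3) and in 44.9% of all promoters. CCAAT was found in 6 of 18 (in UHRF1, DNMT3B, TET1 and TET3) and in 34.6% of all. CACGTG was found in 4 of 18 (in DNMT3A, TET2 and TET3) and in 7.25% of all, and TTTGGCGC in 0 of 18 and in 0.652% of all. Some promoters of a gene overlap and share a match. A match is a run of letters and says nothing about binding.

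Chromatin at a start site, meaning a peak within 1 kb of it, was open in all 16 libraries for 5 of the 7 members. Among the 15812 genes with a start in the table this held for 62.9%. The exceptions were UHRF1 and DNMT3B. TET3 was counted through a start 19.1 kb into the gene, at chr2:74002692. Its annotated start at chr2:73983631 and the start at chr2:73984910 each had a peak in 7 progenitor and 7 neuron libraries. The median fold enrichment of those peaks lay at percentile 8.31 of the list in progenitors and 2.37 in neurons. At UHRF1, the annotated gene start at chr19:4903080 had a peak in 0 libraries. The start at chr19:4909501, 6.42 kb into the gene, had one in 6 of 8 progenitor and 5 of 8 neuron libraries. The start at chr19:4910367 had one in 6 and 6. Both progenitor libraries of day 120 lacked a peak at these starts inside the gene. The merged region chr19:4909217-4912561, which also takes in peaks further into the gene, was present in all 16. At DNMT3B, the annotated gene start at chr20:32762385 had a peak in 15 libraries, and the exception was the second progenitor library of day 120, the shortest list. The DNMT3B start inside the gene, at chr20:32779852, was open in 5 progenitor and 6 neuron libraries.

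DNMT3A and TET1 were open at a second start as well. DNMT3A had a peak of 0.723 ± 0.0782 kb in progenitors and 0.623 ± 0.112 kb in neurons (SD, n = 8 each) at the annotated start of the gene. At the internal starts near chr2:25252315, 90.3 kb into the gene, from where a shorter form of the enzyme is made, the open stretch was 2.28 ± 0.731 kb in progenitors and 2.66 ± 0.403 kb in neurons. At the first TET1 start the open stretch was 2.94 ± 0.686 kb in progenitors and 2.43 ± 0.992 kb in neurons. At its starts near chr10:68600268, 39.9 kb further in, the values were 1.55 ± 0.447 and 1.11 ± 0.175 kb. These widths overlap between the populations and were not tested.

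How much was called differed between libraries and moves every covered length. Lists held 68364 to 138554 peaks and covered 36.9 to 104 Mb, the shortest being progenitor day 120 replicate 2 and the next neuron day 60 replicate 2 with 54.8 Mb. Read depth is not in the lists, so it is unknown and no counting interval could be given. Lengths are therefore also given as kb per 100 Mb called in the library. Markers matched the sorted populations: 6 of 10 radial glia genes were higher in progenitors and 5 of 10 neuron genes were higher in neurons, with none the other way. Of 7 pluripotency markers tested, 2 were higher in progenitors (DPPA4 and L1TD1), and the summed coverage of the list was 11.8 to 19.6 kb per 100 Mb in progenitors and 10.8 to 16.3 in neurons. Of 6 astroglia markers, 4 were higher in progenitors, with summed coverage of 25.9 to 32 against 15.4 to 23.4 kb per 100 Mb. Among markers of other cells, 1 of 4 microglia, 1 of 5 endothelium and 1 of 4 choroid plexus genes were higher in progenitors, and of 5 mesenchyme genes 1 was higher and 2 lower. Their part in the values of the members was not tested. Coverage in sorted pools cannot tell a site open in fewer cells from one less open in each cell.

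Relative to the length of the window, the de novo writers were the most widely open members. Peaks covered 8.67% of the DNMT3B window and 7.84% of the DNMT3A window, at percentiles 89.6 and 85.6 of all genes tested, whose median was 4.26%. UHRF1 followed with 6.01% and TET3 with 5.39%. At UHRF1 the gene body held a mean of 1.9 kb in progenitors and 2.08 kb in neurons. Its downstream flank, which KDM4B shares, held 3.26 and 3.86 kb. Gene bodies alone were not ranked. TET1 (3.84%), TET2 (3.11%) and DNMT1 (2.9%) lay below the median gene. Neighbours add to some windows: EIF3G, P2RY11 and PPAN-P2RY11 for DNMT1, KDM4B and ARRDC5 for UHRF1, MAPRE1 and COMMD7 for DNMT3B, BOLA3 and MOB1A for TET3, and LOC124900868 for TET2.

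DNMT1, the maintenance methyltransferase (chr19:10133346-10194953, minus strand), had 1.33, 3.55 and 5.06 covered kb as the lowest, median and highest of 8 progenitor libraries. The neurons had 1.74, 2.64 and 4.3 kb. The ranges overlapped, and the means were 3.2 ± 1.33 and 2.68 ± 0.767 kb (SD). Scaled to the amount called, log2 coverage differed by 0.11 ± 0.18 (limma estimate and SE, progenitors minus neurons), with an adjusted p of 0.724 and a 95% interval from -0.26 to 0.47. The sign turned to -0.06 when only the gene body was counted and to -0.18 with a flank of 50 kb. On day 90 both progenitor libraries (4.27 and 3.84 kb per 100 Mb) lay above both neuron libraries (3.1 and 2.6). On day 120 the progenitor libraries (1.97 and 3.62) lay below the neuron libraries (3.68 and 5.02). Most of the covered length lay in the flanks. The gene body held 0.931 ± 0.552 kb in progenitors and 0.902 ± 0.364 kb in neurons (SD). The downstream flank held 1.5 ± 0.778 and 1.17 ± 0.477 kb, and the upstream flank 0.771 ± 0.221 and 0.613 ± 0.198 kb.

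UHRF1, the reader that recruits DNMT1 (chr19:4903080-4962154, plus strand), was the member with the largest difference between the populations, and neurons had the higher mean. Per 100 Mb called, the lowest, median and highest were 4.25, 7.21 and 8.39 kb in progenitors and 5.48, 8.8 and 9.95 kb in neurons. The ranges overlapped over all days. The 4 libraries of a day separated at day 120 alone, with 4.76 and 7.25 kb in progenitors and 8.32 and 9.93 kb in neurons. The limma difference was -0.34 ± 0.13 (95% interval -0.60 to -0.08), with a p of 0.0128 that was 0.0577 after adjustment over all genes, so it did not pass the threshold of 0.05. An exact permutation test over 8 against 8 libraries gave 0.051, adjusted 0.209. With libraries permuted only within days, it gave 0.0278, adjusted 0.126. The side of the threshold changed with the setting. Without progenitor day 120 replicate 2 the limma difference was -0.42 with an adjusted p of 0.0169, and 18.8% of all genes were then called lower in progenitors. Without neuron day 40 replicate 1 it was -0.44 (limma adjusted p = 0.0116, with 10.3% of all genes lower), and without progenitor day 40 replicate 1 it was -0.39 (limma adjusted p = 0.0449, with 9.57% lower). Without neuron day 40 replicate 2 it was -0.24 (limma adjusted p = 0.191), and with the gene body alone it was -0.12 (limma adjusted p = 0.747). Most of the covered length lay in the downstream flank that KDM4B shares, 3.26 ± 1.08 kb in progenitors and 3.86 ± 0.706 kb in neurons. The gene body had 1.9 ± 0.795 and 2.08 ± 1.22 kb.

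DNMT3A, the de novo methyltransferase that predominates in neurons (chr2:25227874-25342590, minus strand), had the largest covered length of the 7. The lowest, median and highest were 4.74, 12 and 16.5 kb in progenitors and 7.12, 13 and 17.8 kb in neurons, which overlap. Per 100 Mb called, both neuron libraries lay above both progenitor libraries at day 40 (13.6 and 16.1 against 11.2 and 12.2 kb) and at day 90 (16.3 and 16.2 against 13.7 and 15.5 kb). In plain covered length the order on day 90 was reversed, with 14.1 and 15.3 kb in progenitors against 13.1 and 13 kb. The difference over all days was -0.18 ± 0.09 in the limma fit, with an adjusted p of 0.141. With lists trimmed to equal length by their highest fold enrichment, it became 0.26.

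DNMT3B, the other de novo enzyme, is known for its activity early in development (chr20:32762385-32809356, plus strand). The lowest, median and highest covered lengths were 2.76, 8.01 and 10.1 kb in progenitors and 5.2, 7.05 and 9.8 kb in neurons. The 2 populations had nearly the same mean once scaled, with 9.47 ± 1.18 and 9.56 ± 1.48 kb per 100 Mb (SD). The limma difference was -0.00 ± 0.10, adjusted p = 0.985, with an interval from -0.21 to 0.20. Peaks numbered 5 to 13 in progenitors (median 10.5) and 6 to 10 in neurons (median 8), and the progenitor libraries held more at days 40, 60 and 90. An exact permutation test of these numbers gave p = 0.0984, adjusted 0.462.

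TET1, the oxidase best known from pluripotent cells (chr10:68560337-68694487, plus strand), had nearly equal covered lengths, with 3.84, 7.31 and 8.35 kb as the lowest, median and highest in progenitors and 3.95, 7.18 and 8.03 kb in neurons. Its limma difference was -0.04 ± 0.11 (adjusted p = 0.849). The peaks were more numerous in neurons, from 6 to 12 (median 8.5) against 4 to 8 (median 7). That difference of -2.5 peaks had an exact permutation p of 0.0168, which was 0.208 after adjustment. Fitted with limma as numbers of peaks scaled to each list, it was -0.45 with an adjusted p of 0.0147, and TET1 was the 1 member called lower, where 7.86% of all genes were. Per 100 Mb called, the neuron libraries of days 40 and 60 had 6.83, 8.09, 7.46 and 7.2 kb, and those of days 90 and 120 had 10, 9.67, 11.5 and 8.72 kb. On this scale the later neurons lay above the earlier ones, while plain covered lengths overlapped (3.95 to 7.92 kb early, 4.86 to 8.03 kb late). The limma difference of 0.41 ± 0.15 had an adjusted p of 0.109 and did not pass, and without scaling to the amount called it was 0.15. In progenitors the same difference was 0.08 ± 0.15, and the difference between the populations in this change was -0.34 ± 0.21 (adjusted p = 0.555).

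TET2, the oxidase without a DNA-binding CXXC domain of its own (chr4:105145875-105279803, plus strand), covered 2.77, 5.38 and 7.82 kb (lowest, median and highest) in progenitors. The neurons covered 4.05, 5.24 and 8.58 kb, so the ranges overlapped. The limma difference was -0.15 ± 0.10, adjusted p = 0.319. At day 60 both neuron libraries (6.18 and 7.39 kb per 100 Mb) lay above both progenitor libraries (5.91 and 4.44), and likewise at day 90 (7.21 and 6.5 against 5.21 and 5.46). In plain covered length the populations overlapped on both days.

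TET3 is the member of the family known for its expression in neural tissue (chr2:73983631-74135498, plus strand). Its lowest, median and highest covered lengths were 3.67, 11.7 and 13.6 kb in progenitors and 6.28, 9.94 and 14.2 kb in neurons. The difference over all days was 0.05 ± 0.09 in the limma fit (adjusted p = 0.761). At day 60 the progenitor libraries had 15.5 and 15.4 kb per 100 Mb and the neuron libraries 11.1 and 11.4 kb. This was a difference of 0.42 ± 0.18 with a p of 0.0248 and an adjusted p of 0.173. On day 90 the order per 100 Mb was the other way, with 13 and 13 kb against 13.2 and 15.7 kb. In plain covered length the progenitors lay above on both days, on day 90 with 13.4 and 12.8 kb against 10.6 and 12.6 kb.

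TET3 depended on how strong a peak had to be. With only peaks at a −log10 q of 3 or more, the progenitor libraries had 3.18 to 13.4 kb (mean 9.85 ± 3.31, SD) and the neuron libraries 3.19 to 8.48 kb (5.92 ± 2.14). The ranges overlapped through 2 progenitor libraries, day 40 replicate 1 with 7.57 kb and day 120 replicate 2 with 3.18 kb. The limma difference was then 0.58 with an adjusted p of 0.000322, and TET3 was the 1 member called higher, where 9.68% of all genes were. The intronic or exonic place of its peaks is not given by the reference used here. Inside the gene, chr2:74019173-74021542 had a peak in all 16 lists, but a strong one in 7 progenitor and 3 neuron libraries. A region by the gene's start, chr2:73983478-73986038, kept a strong peak in 7 of 8 progenitor and 3 of 8 neuron libraries, and chr2:74106530-74107865 in 6 and 0. These regions were picked after their values were seen.

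**Figure D1:**
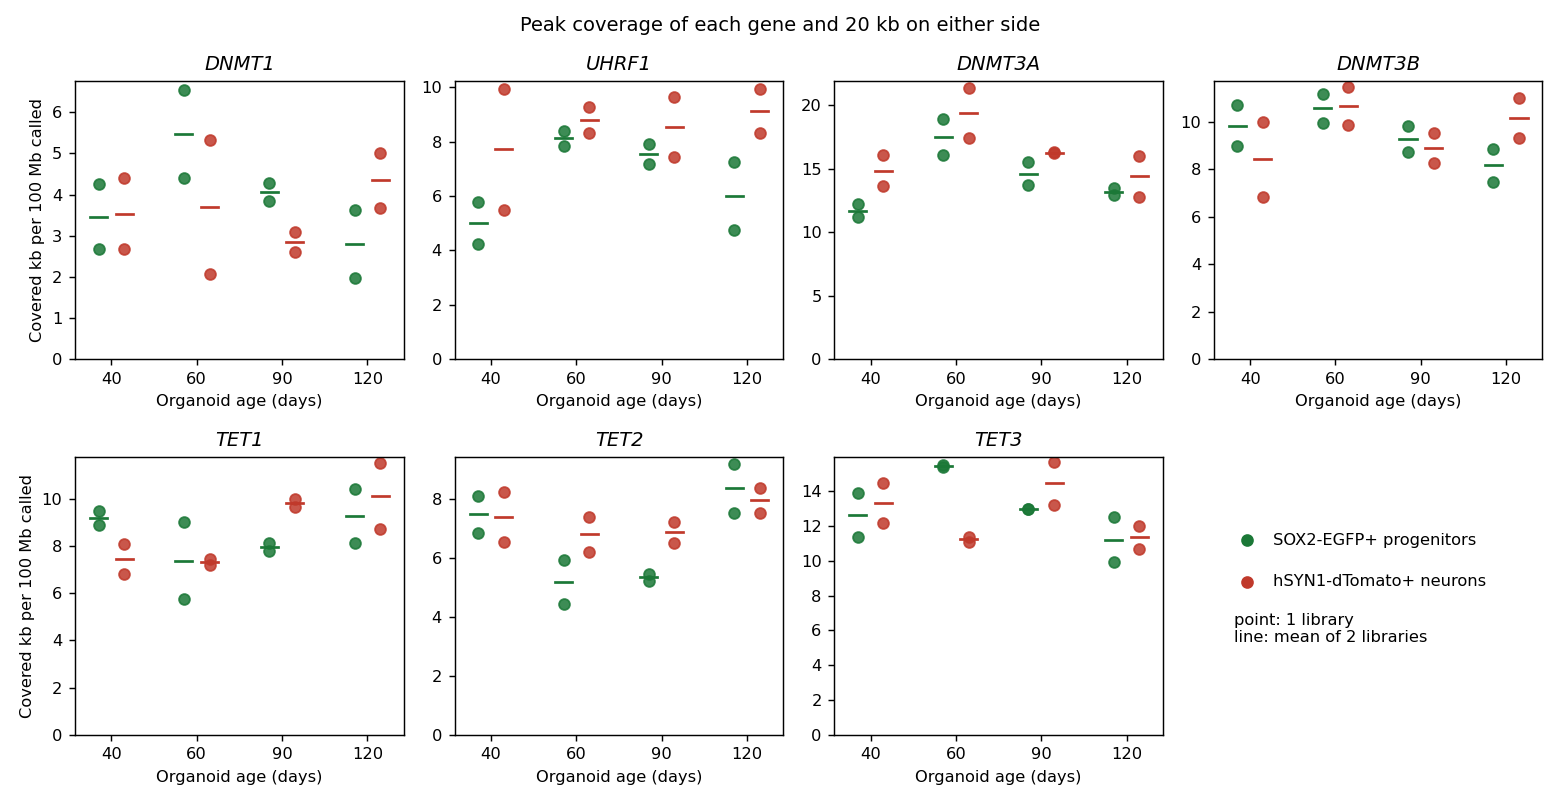
Covered kb per 100 Mb called in the window of each gene, by organoid age in days. Each point is 1 library (green, progenitors, and red, neurons) and each short line the mean of the 2 libraries of a group. TET3 separates at day 60, with progenitors at 15.4 and 15.5 and neurons at 11.1 and 11.4.

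As a group, 0 of the 7 members passed the limma test of progenitors against neurons in either direction. Among all genes 9.9% were called higher in progenitors and 11.1% lower. At an unadjusted p under 0.05 were 2 members, UHRF1 and DNMT3A, both with lower values in progenitors, where 33.2% of all genes had such a p. Differences ran from -0.34 for UHRF1 to 0.11 for DNMT1, with a median of -0.04, beside a median of -0.05 over all genes. The exact permutation test called 0 of 7, where 4.64% of all genes were called higher and 3.92% lower. Without scaling to the amount called, all genes split into 1025 higher and 653 lower, in place of 1856 and 2089.

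Single days gave the same count of 0 of 7 in the limma fit. Of all genes, 4.37% were called higher and 2.27% lower on day 40, and 2.68% and 3.35% on day 60. On day 90 the shares were 1.1% and 1.35%, and on day 120 they were 2.87% and 4%. With an unadjusted p under 0.05 were TET3 on day 60 and UHRF1 on day 120, and no member on the other days. Of all genes, 21.1%, 19.9%, 16% and 20.5% had such a p on the 4 days. The UHRF1 difference on day 120 was -0.55 ± 0.25 (limma adjusted p = 0.212). It was -0.89 without progenitor day 120 replicate 2 and -0.21 without progenitor day 120 replicate 1. With 2 libraries a group, a complete separation of the populations on a day can often arise by chance, and the intervals were wide. The one for DNMT1 at day 60 ran from -0.19 to 1.28.

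**Figure D2:**
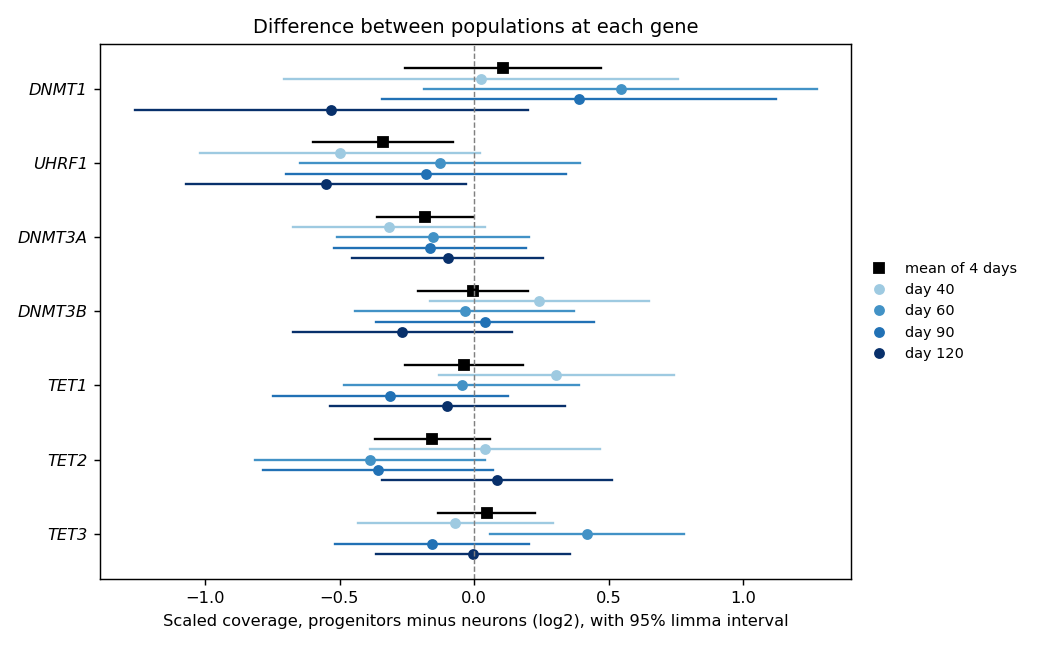
Difference in scaled coverage, progenitors minus neurons, on the log2 scale for each gene. Squares are the mean over the 4 days, circles the single days, and bars the 95% intervals of the limma fit. UHRF1 (-0.34) and DNMT3A (-0.18) have intervals below 0 before adjustment, and the circles of DNMT1 spread from -0.53 to 0.54.

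Organoid age left no called change either. Days 90 and 120 minus days 40 and 60 gave 0 of 7 in progenitors, where 1.44% of genes were higher late and 1.46% lower. In neurons it gave 0 of 7, where 3.3% were higher and 2.37% lower. The difference between the populations in that change gave 0 of 7, beside 0.261% and 0.368%. At an unadjusted p under 0.05 the only member in these 3 comparisons was TET1 in neurons, where 18.8% of all genes had such a p. Differences in progenitors ran from -0.28 (DNMT1) to 0.11 (TET2).

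Single regions were then compared, since equal totals can hide peaks that change places. Overlapping peaks of all libraries were merged into regions, and 162 lay in the 7 windows, 42 of them at TET3 and 38 at DNMT3A. Gene bodies held 121, upstream flanks 19 and downstream flanks 22. Present in all 16 libraries were 23 regions, or 14.2%, beside 9.84% of the regions in windows of all genes. Of these, 8 lay at a start site of the member, 9 elsewhere in its body, 3 at the start of a neighbour and 3 elsewhere in a flank. Regions seen in a single library made up 38.9% of the 162 and 32.7% in all windows.

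Regions present in all 16 libraries included sites in gene bodies away from the member's own starts. DNMT3A had 6, among them chr2:25256777-25258894, chr2:25228690-25230558 near the 3′ end of the gene, and chr2:25314338-25315796. TET3 also had 6, including chr2:74119499-74120945, which lies 116807 bases from the nearest TET3 start. TET2 had chr4:105241076-105242149 besides its start, and DNMT3B had chr20:32789683-32790767. DNMT1 had its start and chr19:10119221-10120379, which lies in EIF3G. TET1 had its 2 start regions, and UHRF1 had the region of its starts and 2 regions in KDM4B.

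Of the 162 regions, 73 had a peak in 2 to 14 libraries and went into a two-sided Fisher's exact test of 8 against 8 libraries, adjusted over 182575 regions. With 3.06% of all tested regions called for progenitors and 1.27% for neurons, 1 of 73 was called for progenitors and 0 for neurons. At an unadjusted p under 0.05 there were 8 and 3 of the 73, beside 11% and 7.16% of all tested regions. The called region, chr20:32807367-32808782, lies inside DNMT3B, 574 bases from its 3′ end. All 8 progenitor libraries had a peak there and no neuron library did (Fisher's exact test, p = 0.000155, adjusted p = 0.0118). In list order from day 40 to day 120, the progenitor peaks covered 881, 1010, 1068, 1064, 680, 1229, 737 and 212 bases. Fold enrichment as the authors' caller gave it was 3.94, 3.79, 5.23, 5.5, 4.88, 3.72, 4.19 and 3.04. The last value of both is the shortest list. The nearest neuron peaks were 2112 to 10920 bases away. Asking that a peak cover 50% of the region removed the call (adjusted p = 0.136).

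**Figure D3:**
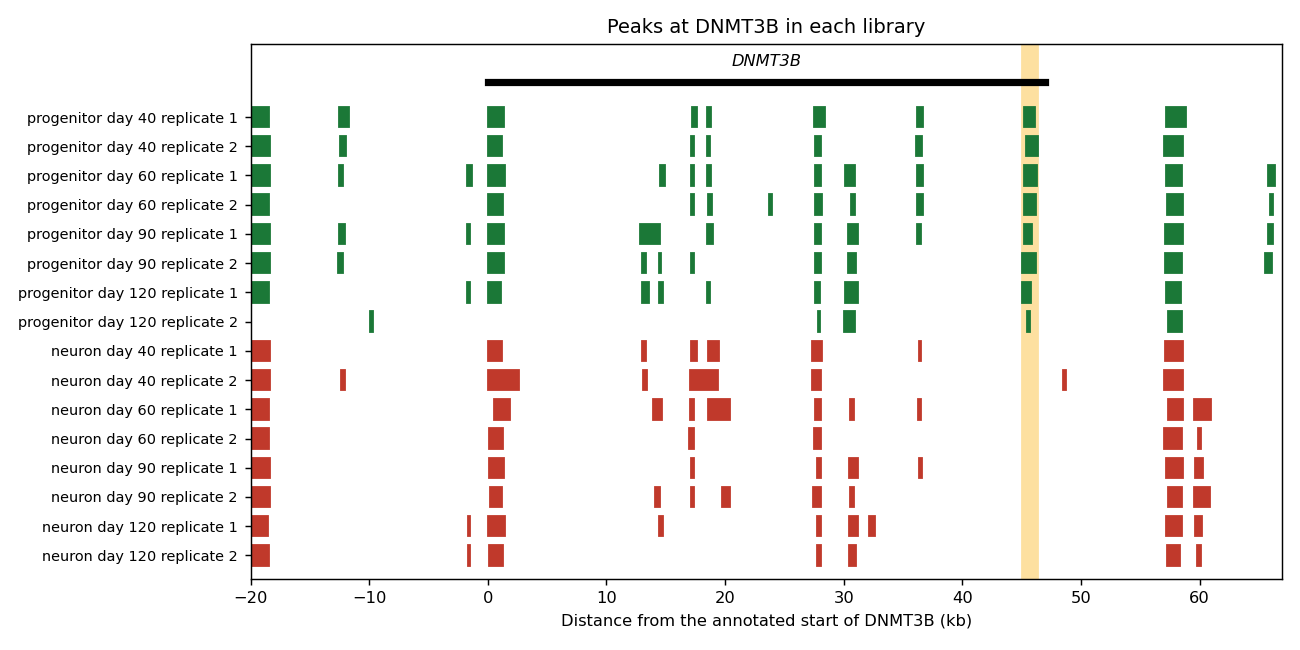
Peaks in the DNMT3B window by library, against distance in kb from the annotated start of the gene (black bar). Green rows are the 8 progenitor libraries and red rows the 8 neuron libraries, and the shaded band is the called region, with peaks in 8 progenitor and 0 neuron libraries.

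The next most uneven regions missed the threshold with an adjusted p of 0.0800 each. Inside DNMT3A, chr2:25332454-25333133 had a peak in 6 progenitor libraries, both of days 60, 90 and 120 and neither of day 40, and in 0 neuron libraries. Inside TET2, chr4:105208404-105209040 had one in 6 progenitor libraries, spread over all 4 days, and in 0 neuron libraries. Downstream of DNMT3B and within MAPRE1, which encodes a protein of growing microtubule ends, chr20:32821904-32823322 had one in both neuron libraries of days 60, 90 and 120, in neither of day 40 and in 0 progenitor libraries. Among the members, the DNMT3B window held the most uneven region in either direction.

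The remaining regions with an unadjusted p under 0.05 lay at TET3, TET1 and DNMT1. In TET3, there were 4, all with more progenitor libraries: chr2:74064645-74065535 and chr2:74066623-74067561 with 5 against 0, chr2:74008806-74010461 with 6 against 1, and chr2:74106530-74107865 with 7 against 2. Over all 42 TET3 regions, 7 were seen only in progenitors and 19 only in neurons, but 21 of the 42 were seen in a single library. Over the 162 regions of all members the counts were 32 and 61, but 63 of the 162 were seen in a single library. The same counts were not made for other genes, so they show nothing particular to the members. In TET1 there were 2, both with more neuron libraries: chr10:68578982-68579845 with 1 against 6 and chr10:68581091-68581654 with 0 against 5. DNMT1 had 1 such region upstream, chr19:10210443-10211130, with 6 against 1. None of these regions passed adjustment, at 0.167 for the 5 against 0 and 0 against 5 regions and 0.223 for the others. Upstream of TET1 the covered length was 0.546 ± 0.164 kb in progenitors and 0.167 ± 0.176 kb in neurons (SD), which was not tested. A region there had a peak in 8 and 4 libraries and was not among those with an unadjusted p under 0.05.

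**Figure D4:**
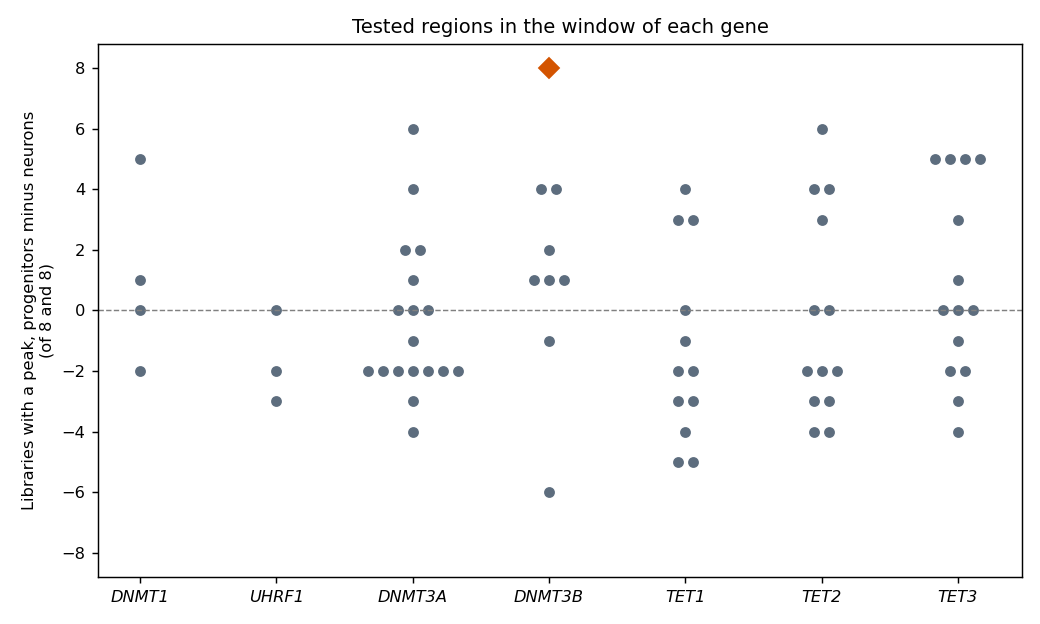
Each point is a tested region in the window of a gene, placed by the number of progenitor libraries with a peak minus the number of neuron libraries (8 of each). The diamond is the called region at DNMT3B, at 8, and of the other regions those in DNMT3A and TET2 reach 6, while the one downstream of DNMT3B, with 0 against 6, lies lowest.

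Other genes of the methylation pathway were read from 4 lists. Of 38 tested genes, 2 were higher in progenitors and 2 lower, with a median of -0.03, beside the 9.9% and 11.1% of all genes that were called. Among 9 methyl-CpG readers, ZBTB4 was lower in progenitors (-0.34, limma adjusted p = 0.0165). Among 11 genes listed under the removal of oxidised or deaminated bases and the repair after it, NEIL3, a glycosylase, was higher (0.81, limma adjusted p = 0.00123). Of 12 regulators of the writers, DPPA3, which keeps UHRF1 from DNA in early embryos, was higher (0.77, from mean lengths of only 0.68 and 0.199 kb) and NSD1, whose histone mark draws DNMT3A, was lower (-0.39). None of 6 TET partners and cofactor enzymes passed. From a list of methyl donor synthesis, not counted here, MAT2B was higher (0.65, limma adjusted p = 0.000228) and MTR, the methionine synthase, was lower (-0.58, limma adjusted p = 0.00258). Cell cycle genes, listed because maintenance follows replication, had 1 of 14 higher (MCM6, 0.58) and 1 lower (MCM2, -0.28).

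Genes with the most similar scaled coverage over the 16 libraries were listed for each member, leaving out those within 1 Mb. For UHRF1 they were SAE1, ACOX2 and LOC124903470 (Pearson r = 0.914, 0.888 and 0.877), and for TET2 KIF2A, IFTAP and CD200R1L (0.902, 0.837 and 0.819). For DNMT3A they were ATP5F1D, C10orf105 and DLGAP4 (0.881, 0.86 and 0.859), and for TET1 PAK1, ABHD11 and BCDIN3D (0.862, 0.841 and 0.841). DNMT1 had B3GALT4, POLRMT and DERL3 (0.851, 0.85 and 0.849), DNMT3B had NR2E3, C1QTNF5 and MFRP (0.843, 0.809 and 0.809), and TET3 had ANKS1A, HOXA2 and AGPAT4 (0.746, 0.728 and 0.72). Between members r ran from -0.61 (TET2 with TET3) to 0.57 (UHRF1 with DNMT1 and with DNMT3A). All points share the libraries and their amount called, and these values are a description with no test.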

How the data were processed

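Open chromatin was measured by ATAC-seq in 16 libraries, grouped by the sample titles. The submitters' processing notes name MACS2 2.1.2, SAMtools 1.9, BWA 0.7.17, Trim Galore 0.5.0 and Picard, and the build hg38. The deposited broad peak lists give a score, a fold enrichment ratio, and −log10 p-values and q-values for each peak, made per library by the authors' caller. Their settings are not stated in those notes.

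Only peaks on the autosomes and X entered. The bases under peaks in each gene with its 20 kb flanks were expressed as log2(bases + 500) minus log2 of the library's covered total. The 500 added bases understate changes of sparsely covered genes and raise their values most in short lists. Genes with at least 500 bases in at least 2 libraries were fitted with limma 3.58.1 (R 4.3.3, trend in the prior variance, 8 group means). Adjustment was by Benjamini-Hochberg over every gene or region tested, with a threshold of 0.05. A region was present in a library when a peak overlapped it by at least 1 base. Exact permutation tests were two-sided and adjusted over all genes. The limma fit, the permutation test of 8 against 8 libraries and Fisher's exact test were each tried on simulated data. The alternatives with a replicate block, with day as a stratum or with libraries permuted within days were not.

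The members, gene lists and tests were chosen with earlier results of these data known. Named were all members, pathway genes that passed the test (up to 4 a list), the 3 genes most like each member, called regions and regions present in all libraries, and others only as stated. The counts of a further pathway list are not reported here. Alternatives changed scaling, list length, flank, pseudocount, filters, peak strength, overlap, day, replicate block and libraries. The gene table and promoters are from RefSeq, GRCh38.p14.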

Additional observations from a re-analysis of the deposited data

Results flagged for a closer look

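In 42 groups of covered lengths or peak numbers checked for a library standing apart, 3 were found, and chance gives about 1 in 20. DNMT1 covered 4.3 kb in neuron day 40 replicate 2, far above the other neuron libraries. DNMT3B covered 2.76 kb in progenitor day 120 replicate 2, far below the other progenitor libraries, and that library is the shortest list at 36.9 Mb. UHRF1 had 8 peaks in progenitor day 60 replicate 2, more than the other progenitor libraries.

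The order of the populations differed between days for TET1 and TET3 in log2 coverage relative to the amount called. For TET1 the progenitors lay above the neurons at day 40 by 0.31 and below them at day 90 (-0.31), in both libraries each time. In plain covered length TET1 overlapped on both days, and the mean amount called was 80.3 Mb in progenitors and 101 Mb in neurons at day 40, and 101 and 80.2 Mb at day 90. For TET3 the difference was 0.42 at day 60 and -0.16 at day 90, while in plain covered length the progenitors lay above on both days. For DNMT1 the progenitors lay above at day 90 and below at day 120 in covered length, in length per 100 Mb and in number of peaks. On the log2 scale of the fit DNMT1 overlapped at day 120. None of these differences between days was tested. Few libraries enter per day, so a complete separation of the populations can often arise by chance. Per 100 Mb called, neurons lay above for 1 member on day 40, 1 on day 60, 4 on day 90 and 3 on day 120. Progenitors lay above for 1 member on each of days 40, 60 and 90. The other members overlapped, 5, 5, 2 and 4 on the days in order. Such separations were not counted over all genes, so these counts show nothing particular to the members.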

How the results depend on the processing

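Of the 8 coverage comparisons, 3 kept a count of 0 members under every alternative run (day 40, day 90, and late against early neurons) and 5 moved under at least 1. For progenitors against neurons, 1 member was higher with peaks of −log10 q of 3 or more (TET3), and 1 was lower with number of peaks (TET1), without the 2 shortest lists (UHRF1, adjusted p = 0.042 by limma, an alternative chosen after seeing the data), and with the replicate block (UHRF1, limma adjusted p = 0.0363). Leaving out 1 library each gave 0 to 1. With the replicate block, 13% of all genes were called lower in progenitors. With lists of equal length, 1 was higher at day 120, 1 in late against early progenitors, and 1 in the difference between populations, each time DNMT3A. The shares of all genes called higher in these 3 comparisons were 1.7%, 1.21% and 0.402%. With the stricter peaks, 1 was higher at day 60 and 1 at day 120 (TET3) and 1 was lower at day 120 (TET1). The shares of all genes were then 3.33% higher at day 60, and 2.69% higher and 2.84% lower at day 120. The cause was not tested.

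It is not known if replicate numbers pair the libraries. Deviations of same-numbered libraries correlated at -0.12, 0.21, 0.06 and 0.16 on the 4 days. In 3 of the 4 days same-numbered libraries were positively correlated. The replicate block gave 2086 genes higher and 2436 lower in place of 1856 and 2089.

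Called regions for progenitors numbered 0 with 50% overlap, 0 with day as a stratum and 0 with the replicate block, where the last 2 settings called 0 regions genome-wide and so say nothing on stability. Leaving out 1 library gave 1 to 2, adding DNMT3A without either progenitor library of day 40 and TET2 without progenitor day 60 replicate 1 or day 120 replicate 2. For neurons the count was 1 with equal lists, at TET2 (chr4:105223712-105224872), and 0 to 1 with 1 library left out, adding the region downstream of DNMT3B without either neuron library of day 40.

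Signs turned for members near 0: DNMT1 to -0.06 (gene body), -0.07 (flank of 5 kb) and -0.18 (50 kb), and -0.04 to 0.26 with 1 library left out; DNMT3B to 0.05 (no scaling), 0.16 (gene body and 5 kb) and 0.25 (peaks), and -0.07 to 0.06; TET1 to 0.01 (no scaling), and -0.11 to 0.03; DNMT3A to 0.26 (equal lists). With equal lists DNMT3B was -0.49 and TET2 was -0.49 (from -0.15). TET3 turned to -0.04 (peaks), and at day 60 to -0.14 with equal lists and -0.14 with peaks. Depth is not in the lists, so a missing peak may be a site not called.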
